A study of Homo sapiens with 9 samples.

Results

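The genes described here are 54 listed members of the Wnt pathway: 12 Wnt ligands, 10 Frizzled receptors, 5 co-receptors and alternative receptors, 9 extracellular antagonists and their receptors, 2 genes of ligand acylation and secretion, 4 genes of receptor turnover and R-spondin reception, 5 genes of the destruction complex, β-catenin included, 4 TCF/LEF factors and 3 other feedback genes. All 54 were found among the 60648 genes of the count table, by symbol. RNA was measured by RNA-Seq in 3 libraries of each of 3 lines. TC4-2A cells carry an inducible insert for a circular RNA built from 4 early SMN exons (2A, 2B, 3, 4), and TL4-2A cells carry one for the linear RNA of the same exons. T-REx cells, derived from the human embryonic kidney line HEK293, are the parental line without an insert. All 3 lines, the control included, received doxycycline (Dox) for 96 h, so the induced RNA and the line that carries it cannot be told apart. Whether each line is a single clone, and whether its libraries came from separate cultures, is not given in the sources used here, so p-values measure the spread between these libraries, which may be technical.

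Wnt proteins are secreted glycoproteins that bind Frizzled receptors together with the co-receptors LRP5 and LRP6. In the β-catenin branch, binding halts a destruction complex built on AXIN and APC, so that β-catenin accumulates and joins TCF/LEF factors at target genes, among them several inhibitors of the pathway itself. Another branch, driven by ligands such as WNT5A, signals through ROR and RYK receptors without β-catenin. Secreted antagonists capture Wnt proteins (the SFRP family, WIF1) or block LRP co-receptors (DKK1) before a signal can begin.

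The libraries held 16561680 to 21491977 counts. SMN1 and SMN2, the source of these exons, had a summed level of 91.4 to 97.4 CPM (counts relative to the scaled size of a library) in TC4-2A, 61.4 to 64.0 in TL4-2A and 53.5 to 55.5 in T-REx libraries. Reads of the induced RNA, which is made of SMN exons, may be counted among these. The sums may therefore not be those of the SMN genes alone. All 5 markers of HEK293 cells (PAX2, NEFL, NEFM, INA and LIN28B) passed the expression filter, and their summed level was 277 to 289 CPM in TC4-2A, 266 to 274 CPM in TL4-2A and 365 to 377 CPM in T-REx libraries. Markers of leukocytes, endothelium and hepatocytes summed to under 1 CPM in every library, and of 4 fibroblast markers 1 passed the filter, with sums of 9.03 to 9.87 CPM in TC4-2A, 7.85 to 8.10 CPM in TL4-2A and 11.2 CPM in each T-REx library. The part of these markers in the results below was not tested. In bulk RNA, fewer cells of a kind and less RNA per cell cannot be told apart.

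Of the 54 members 49 passed the expression filter of edgeR and were tested. In TC4-2A cells 0 of them were upregulated and 18 (36.7%) were downregulated against T-REx cells at a Benjamini-Hochberg adjusted p under 0.05, edgeR's quasi-likelihood test, adjusted over all 19473 genes tested. Over all genes tested, 28.8% passed the same threshold, with 14.2% higher and 14.6% lower in TC4-2A cells. Against T-REx cells, TL4-2A cells had 9 members upregulated and 16 downregulated (51% of those tested), where 44.3% of all genes were called, 21.9% higher and 22.5% lower. Set against TL4-2A cells directly, TC4-2A cells had 3 members higher and 18 lower (42.9%), where 35.4% of all genes were called, 17.6% higher and 17.8% lower. In TC4-2A cells 9 members had a positive and 40 a negative log2 fold change, with a median of -0.11, beside 9895 positive and 9578 negative changes and a median of 0.0037 for all genes. SFRP2, whose fold rests on few counts, stays the lowest value at the bound its counts allow, so that median cannot depend on its size. In TL4-2A cells 22 were positive and 27 negative, with a median of -0.05 beside -0.0006 for all genes. The comparisons with T-REx cells share their control libraries. The members, and the other lists below, were chosen with earlier results of these data known. Their shares and medians beside those of all genes therefore cannot be read as a shift of the pathway.

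In TC4-2A cells the members called lower were WNT7B, WNT11, FZD1, FZD3, FZD4, FZD6, FZD8, LRP5, LRP6, SFRP1, SFRP2, SFRP4, WIF1, WLS, LGR4, LGR5, CTNNB1 and TCF7L2. In TL4-2A cells WNT5A, WNT5B, FZD5, FZD7, LRP6, ZNRF3, GSK3B, TCF7L1 and TCF7L2 were called higher, and WNT2B, WNT3, WNT4, WNT7B, WNT9A, FZD3, FZD4, FZD6, FZD8, FZD9, SFRP2, SFRP4, WIF1, WLS, LGR4 and APC lower. In TC4-2A cells 2 members were higher at an unadjusted p under 0.05 and DESeq2 called 0 higher, and without T-REx replicate 2 edgeR called 1 higher (TCF7L1, log2 change 0.23, adjusted p = 0.0337). The 3 members called higher in TC4-2A than in TL4-2A cells (WNT3, WNT4 and FZD9) were 1 with DESeq2. A call in 1 line alone does not show that the lines differ. For each member called in 1 line alone, the direct comparison stands with the gene.

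**Figure D1:**
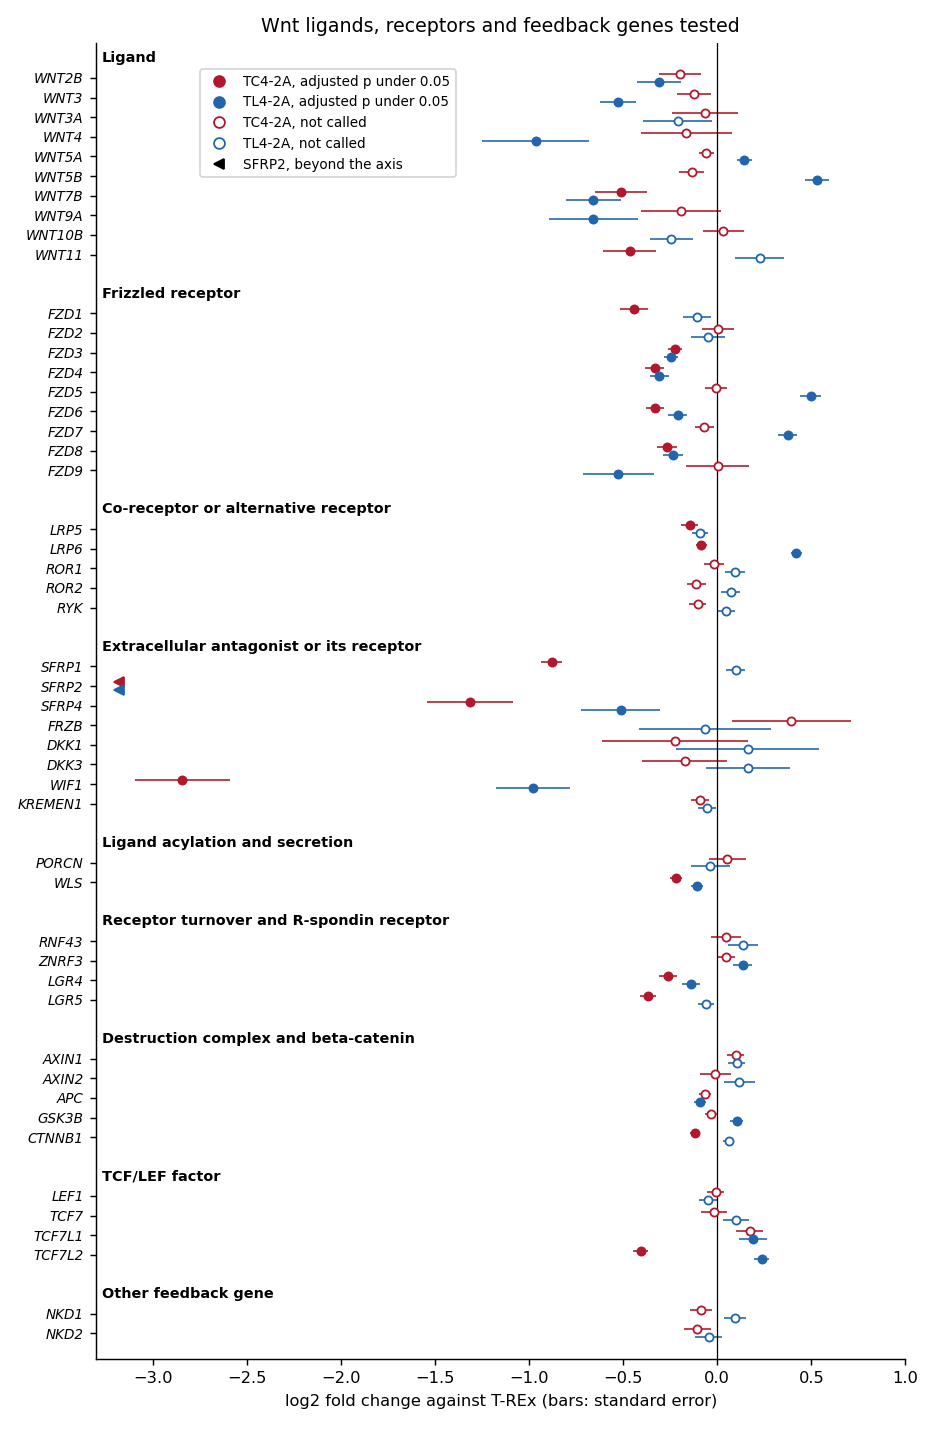
Log2 fold change against T-REx cells (horizontal axis, bars: standard error) of the 49 members tested, by role, in TC4-2A (red, upper point of each pair) and TL4-2A cells (blue, lower point). Filled points passed an adjusted p under 0.05, and arrows mark SFRP2, which lies beyond the axis. Filled red points lie left of 0 in all 18 cases, and filled blue points on both sides.

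The largest changes among the members in TC4-2A cells were those of secreted antagonists. SFRP1, SFRP2, SFRP4 and WIF1 were all lower in TC4-2A than in T-REx cells. They were the only members of the 49 that changed there by at least 1.5-fold. Over all genes, 996 of the 19473 tested were called and changed there by at least 1.5-fold. Of 8 antagonists and their receptors tested, 4 were lower and 0 higher in TC4-2A cells (50%, beside 28.8% of all genes). In TL4-2A cells 3 were lower and 0 higher (37.5%, beside 44.3% of all genes). The SFRP proteins carry a cysteine-rich domain related to that of Frizzled receptors and bind Wnt proteins outside the cell, and WIF1 is a secreted protein that binds Wnt through its own domain.

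SFRP2 (ENSG00000145423.5, on chromosome 4 from 153780591 to 153789083, GRCh38) was nearly silent in both engineered lines. It had 1, 0 and 1 counts in the TC4-2A libraries and 1, 0 and 0 counts in the TL4-2A libraries, against 62, 54 and 61 counts in the T-REx libraries, where its level was 3.28, 2.498 and 3.18 CPM. With 2 counts in all against 177, the pooled level was 88.6-fold lower in TC4-2A than in T-REx cells, with a 95% exact conditional binomial interval of 24.2 to 737-fold that covers counting error only. With 1 count against 177, it was 153-fold lower in TL4-2A than in T-REx cells, with an interval of 27.2 to 6088-fold. Both differences passed edgeR's test (adjusted p = 1.44e-13 for TC4-2A cells and 1.55e-13 for TL4-2A cells), which SFRP2 entered only through its T-REx counts. The 10 tested genes on either side of SFRP2 on the chromosome had a median log2 fold change of 0.50 in TC4-2A cells, where 15 of these 20 neighbours were higher and 0 lower. Their median was -0.09 in TL4-2A cells.

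WIF1 (ENSG00000156076.10, chromosome 12, 65050626 to 65121305) had 0.399, 0.616 and 0.376 CPM in TC4-2A libraries, 1.93, 1.66 and 1.58 CPM in TL4-2A libraries and 3.55, 3.66 and 2.97 CPM in T-REx libraries. The 3 lines did not overlap, with TC4-2A lowest and T-REx highest. On the log2 scale the fold change of WIF1 was -2.84 (standard error, SE, 0.25, adjusted p = 1.26e-11, edgeR) in TC4-2A cells and -0.98 (SE 0.20, adjusted p = 8.67e-05, edgeR) in TL4-2A cells. The direct difference between TC4-2A and TL4-2A cells was -1.86 on the log2 scale (SE 0.30, adjusted p = 2.66e-06, edgeR). Its neighbours had medians of -0.05 and -0.13 in TC4-2A and TL4-2A cells.

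SFRP1 (ENSG00000104332.12, chromosome 8, 41261962 to 41309473) was lower in TC4-2A cells than in both other lines. It had 17.8, 18.7 and 18.5 CPM in TC4-2A libraries, 38.9, 35.2 and 34.3 CPM in TL4-2A libraries and 32.98, 34.98 and 33.18 CPM in T-REx libraries. TC4-2A libraries stood apart from all others, while TL4-2A and T-REx libraries overlapped. The log2 fold change was -0.88 (SE 0.06, adjusted p = 1.33e-15, edgeR) in TC4-2A cells, 0.10 (SE 0.05, adjusted p = 0.115, edgeR) in TL4-2A cells, and -0.98 (SE 0.06, adjusted p = 5.01e-17, edgeR) for TC4-2A against TL4-2A cells. In TC4-2A cells the neighbours of SFRP1 had a median of 0.12, with 5 higher and 0 lower.

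SFRP4 (ENSG00000106483.12, chromosome 7, 37905932 to 38025695) had 1.05, 0.996 and 0.912 CPM in TC4-2A libraries, 2.18, 1.495 and 1.52 CPM in TL4-2A libraries and 2.70, 2.54 and 2.14 CPM in T-REx libraries. TC4-2A libraries were the lowest, and the ranges of TL4-2A and T-REx libraries overlapped. The log2 fold change was -1.31 (SE 0.23, adjusted p = 2.1e-05, edgeR) in TC4-2A cells and -0.51 (adjusted p = 0.0451, edgeR) in TL4-2A cells. The call in TL4-2A cells was lost under 6 of 15 alternatives, over which its adjusted p ran between 0.0183 and 0.172: with DESeq2 (adjusted p = 0.136), with no expression filter (0.0516), and without T-REx replicate 1 (0.129) or 2 (0.112) or TL4-2A replicate 2 (0.172) or 3 (0.144). For TC4-2A against TL4-2A cells the difference was -0.80 (adjusted p = 0.0119, edgeR), a call lost only without TL4-2A replicate 1 (adjusted p = 0.108, with a range of 0.00791 to 0.108 over the alternatives).

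**Figure D2:**
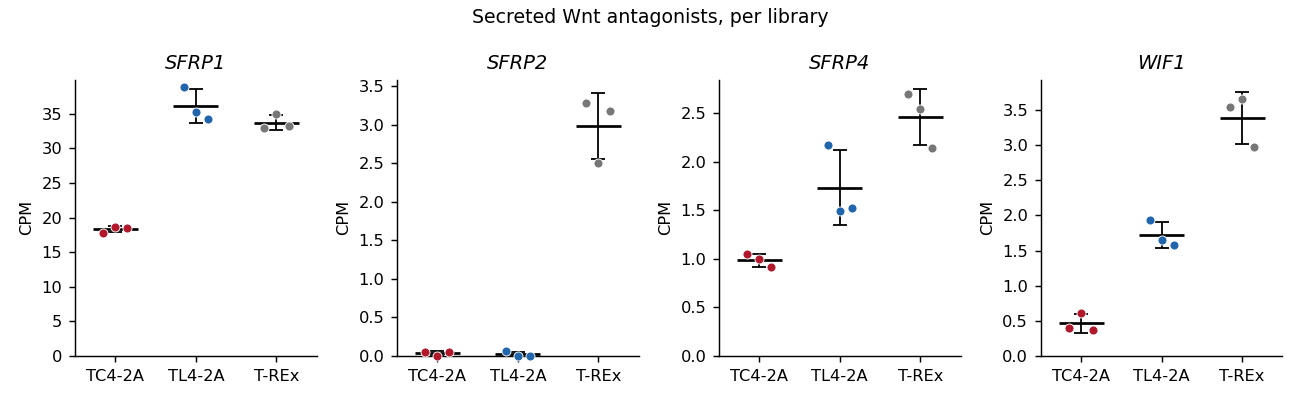
Level in CPM (vertical axis, from 0) of the 4 secreted antagonists in each library (points) of the TC4-2A, the TL4-2A and the T-REx line, with the mean (line) and SD (bars, n = 3). SFRP2 lies at or near 0 in both engineered lines, WIF1 falls into 3 separate levels, and SFRP1 is lower in TC4-2A libraries only.

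Of the 10 members called lower in both lines, promoter windows from RefSeq (GRCh38.p14) are given for 3, SFRP2, SFRP4 and WIF1. The windows hold 250 bases before and 50 after the annotated start, on the minus strand for all 3. Every CpG dinucleotide in these windows is in capitals, as CG. The windows are at chr4:153789034-153789333, chr7:37916768-37917067 and chr12:65121256-65121555.
SFRP2: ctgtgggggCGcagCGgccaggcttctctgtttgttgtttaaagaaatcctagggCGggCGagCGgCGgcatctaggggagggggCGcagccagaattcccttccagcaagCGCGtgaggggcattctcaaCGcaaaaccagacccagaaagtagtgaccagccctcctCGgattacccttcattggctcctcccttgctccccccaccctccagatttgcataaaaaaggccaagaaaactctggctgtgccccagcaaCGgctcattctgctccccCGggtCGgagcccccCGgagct
SFRP4: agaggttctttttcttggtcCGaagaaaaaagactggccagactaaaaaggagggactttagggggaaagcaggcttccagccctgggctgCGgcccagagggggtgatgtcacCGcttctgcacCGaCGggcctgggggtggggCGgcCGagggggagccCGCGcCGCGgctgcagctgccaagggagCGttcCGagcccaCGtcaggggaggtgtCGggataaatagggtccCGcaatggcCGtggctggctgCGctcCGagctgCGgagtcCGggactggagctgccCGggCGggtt
WIF1: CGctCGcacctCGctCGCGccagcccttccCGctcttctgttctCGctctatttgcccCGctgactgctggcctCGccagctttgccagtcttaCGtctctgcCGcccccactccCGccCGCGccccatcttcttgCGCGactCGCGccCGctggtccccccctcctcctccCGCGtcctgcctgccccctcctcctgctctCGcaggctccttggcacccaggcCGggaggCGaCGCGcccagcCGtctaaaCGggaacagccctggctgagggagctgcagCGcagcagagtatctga
SFRP2 has 15 CpG dinucleotides in this window, SFRP4 23 and WIF1 29, where the median of 35116 RefSeq windows of 300 bases was 14. As many or fewer CpG were found in 52.5%, 66.1% and 77.6% of those windows, in the order of the 3 genes. The TCF/LEF motif CTTTGAT, searched on both strands (ATCAAAG on the other), was in 919 windows (2.62%) and in none of these 3. Of the members, 37 of 54 had at least 1 window in the table, SFRP1 not among them. Over all windows of these members, several for some, the median was 25 CpG, and 1 member (SP5) held the motif. Methylation was not measured in these libraries.

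The remaining antagonists and their receptors did not pass the test. KREMEN1, a receptor that binds DKK proteins, gave log2 fold changes of -0.09 for TC4-2A (SE 0.05, adjusted p = 0.162, edgeR) and -0.05 for TL4-2A cells (SE 0.05, adjusted p = 0.400, edgeR). DKK1 and FRZB were each below 1 CPM on average in every line, and DKK3 lay between 1.46 and 1.85 CPM. NOTUM, an enzyme that removes the lipid from Wnt proteins, had 27 counts in TC4-2A, 9 in TL4-2A and 28 in T-REx cells over 3 libraries each and was not tested.

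Among the ligands, levels per exon length put WNT5A first in every line, with 12.6 ± 0.213 CPM per kilobase in TC4-2A, 14.5 ± 0.541 in TL4-2A and 13.1 ± 0.486 in T-REx cells (SD, n = 3 libraries). That was 45.6%, 45.8% and 43.7% of the summed level of the 12 ligands per kilobase, in the same order of lines. WNT5B was second, at 4.55 CPM per kilobase in TC4-2A, 7.22 in TL4-2A and 5.002 in T-REx cells, and WNT10B was next. Neither WNT5A and WNT5B nor WNT5B and WNT10B overlapped in any line, whereas WNT10B and WNT11 overlapped in TL4-2A cells, and WNT11 and WNT3 in T-REx cells. WNT6 and WNT10A were the lowest, with 14 and 9 counts in TC4-2A, 11 and 5 in TL4-2A and 24 and 7 in T-REx cells, and were not tested.

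**Figure D3:**
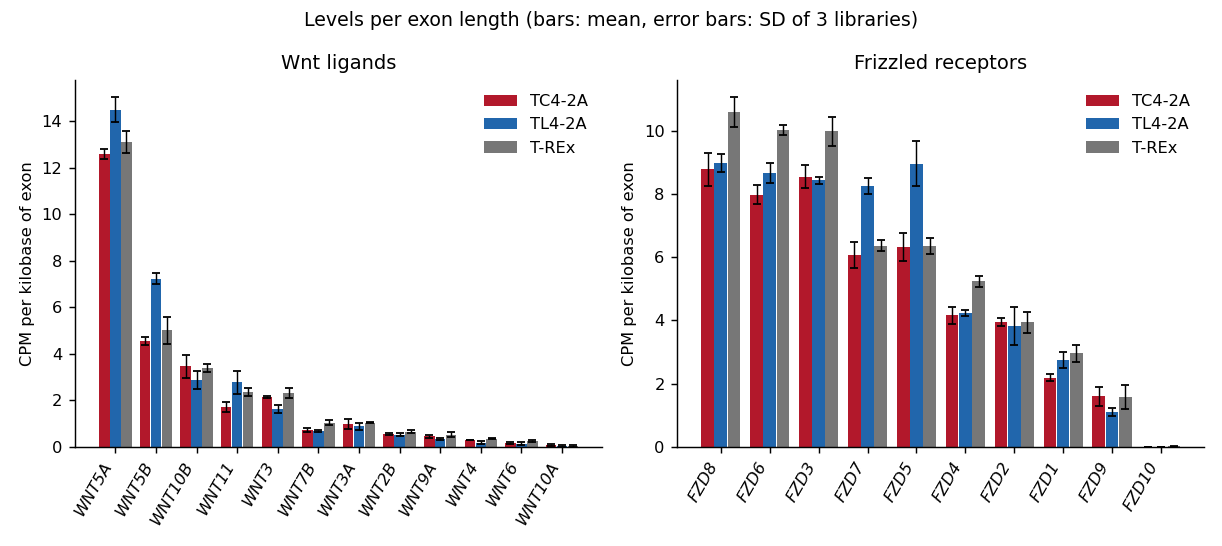
Mean level in CPM per kilobase of exon (vertical axis, from 0; error bars: SD, n = 3 libraries) of the 12 ligands (left) and 10 Frizzled receptors (right) in the TC4-2A, the TL4-2A and the T-REx line, ordered by the level in T-REx cells. WNT5A exceeds every other ligand in each line, and FZD5 and FZD7 stand higher in TL4-2A than in T-REx cells.

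Of 10 ligands tested, 2 were lower in TC4-2A cells (WNT7B and WNT11), which is 20% beside 28.8% of all genes, and in TL4-2A cells 2 were higher (WNT5A and WNT5B) and 5 lower (WNT2B, WNT3, WNT4, WNT7B and WNT9A), which is 70% beside 44.3%. WNT7B, a ligand of the β-catenin branch, had 3.24, 3.70 and 4.13 CPM in TC4-2A libraries, 3.57, 3.31 and 3.10 CPM in TL4-2A libraries and 5.61, 5.41 and 4.74 CPM in T-REx libraries. Both engineered lines lay below every T-REx library, with log2 fold changes of -0.51 (SE 0.14, adjusted p = 0.00408, edgeR) in TC4-2A and -0.66 (SE 0.15, adjusted p = 0.00032, edgeR) in TL4-2A cells. The median of its neighbours on chromosome 22 was 0.06 where TC4-2A cells were compared and 0.13 for TL4-2A cells.

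WNT5B, a ligand of the β-catenin-independent branch, had 19.2, 20.1 and 18.6 CPM in TC4-2A libraries, 29.5, 30.9 and 31.5 CPM in TL4-2A libraries and 19.0, 20.9 and 23.8 CPM in T-REx libraries. Only the TL4-2A libraries stood apart, by 0.53 on the log2 scale against T-REx cells (SE 0.06, adjusted p = 8.62e-09, edgeR), and TC4-2A against TL4-2A cells gave -0.66 (adjusted p = 5.96e-11, edgeR). On chromosome 12 the 20 neighbours of WNT5B had a median of 0.49 in TL4-2A cells, with 12 higher and 0 lower. The related WNT5A, on chromosome 3, changed by 0.14 in TL4-2A cells (adjusted p = 0.00374, edgeR) beside a neighbour median of -0.01, and TC4-2A against TL4-2A cells gave -0.20 (adjusted p = 0.000114, edgeR).

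WNT11, another β-catenin-independent ligand in most settings, had 4.59, 3.98 and 3.59 CPM in TC4-2A libraries, 7.62, 6.73 and 5.29 CPM in TL4-2A libraries and 5.40, 6.06 and 5.31 CPM in T-REx libraries. The TC4-2A libraries lay below all others, and the other lines overlapped. The log2 fold change was -0.46 in TC4-2A cells (adjusted p = 0.0107, edgeR), a call lost without T-REx replicate 2 (adjusted p = 0.0672) and without TC4-2A replicate 3 (0.0569), with 0.00579 to 0.0672 over 15 alternatives. For TC4-2A against TL4-2A cells it was -0.69 (SE 0.14, adjusted p = 0.000134, edgeR).

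WNT4, a ligand first known for roles in kidney and the reproductive tract, had 1.40, 1.38 and 1.39 CPM in TC4-2A libraries, 0.846, 0.481 and 1.10 CPM in TL4-2A libraries and 1.43, 1.57 and 1.67 CPM in T-REx libraries. TL4-2A libraries were the lowest and the most spread. Against T-REx cells the log2 fold change in TL4-2A cells was -0.97 (SE 0.28, adjusted p = 0.00505, edgeR), beside a neighbour median of -0.47 with 0 neighbours higher and 15 lower. Without TL4-2A replicate 2 it was -0.68 (adjusted p = 0.0673, the highest of 14 alternatives, the lowest being 0.00261). TC4-2A against TL4-2A cells gave 0.80 (adjusted p = 0.0273, edgeR), lost in 6 of 14 alternatives (0.0124 to 0.208): with DESeq2 (0.0803), without TC4-2A replicate 1 (0.0532), 2 (0.0503) or 3 (0.0541), and without TL4-2A replicate 1 (0.0502) or 2 (0.208).

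WNT9A had 1.60, 2.04 and 1.72 CPM in TC4-2A libraries, 1.15, 1.55 and 1.16 CPM in TL4-2A libraries and 2.33, 1.62 and 2.24 CPM in T-REx libraries. The TL4-2A libraries lay below the T-REx libraries by a narrow gap, with a log2 fold change of -0.66 (adjusted p = 0.0214, edgeR). That call was lost with DESeq2 (adjusted p = 0.0624), without T-REx replicate 1 (0.0839) or 3 (0.0762) and without TL4-2A replicate 1 (0.0780) or 3 (0.0762), and ran between 0.00938 and 0.0839 over 15 alternatives. WNT3, a ligand of the β-catenin branch, was lower in TL4-2A cells (log2 change -0.53, adjusted p = 2.54e-05, edgeR), and TC4-2A against TL4-2A cells gave 0.40 (adjusted p = 0.00111, edgeR). WNT2B was lower in TL4-2A cells at -0.31 (adjusted p = 0.0295, edgeR), a call lost with DESeq2 (0.0860) and without T-REx replicate 1 (0.0855) or 2 (0.130) or TL4-2A replicate 2 (0.171), with 0.0115 to 0.171 over 15 alternatives. Between TC4-2A and TL4-2A cells neither WNT9A (0.46, adjusted p = 0.136, edgeR) nor WNT2B (0.11, adjusted p = 0.504, edgeR) passed the test. WNT3A and WNT10B did not pass the test in any comparison.

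**Figure D4:**
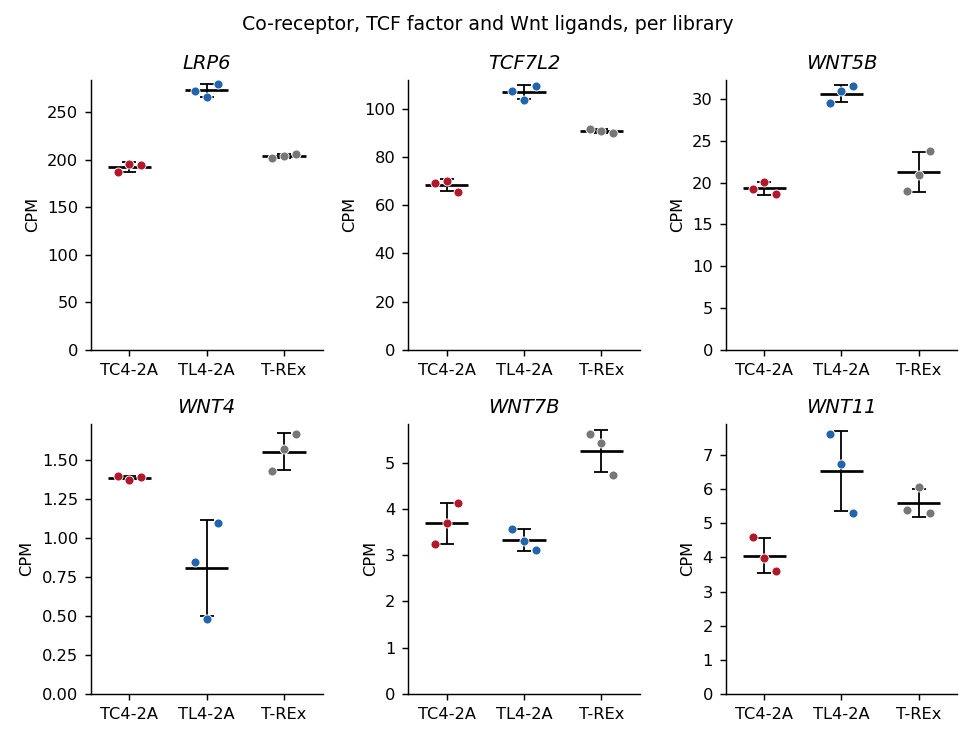
Level in CPM (vertical axis, from 0) of LRP6, TCF7L2 and 4 ligands in each library (points) of the TC4-2A, the TL4-2A and the T-REx line, with the mean (line) and SD (bars, n = 3). LRP6 and TCF7L2 lie above the T-REx libraries in TL4-2A and below them in TC4-2A libraries, and WNT7B lies below the T-REx libraries in both lines.

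Frizzled receptors are the membrane proteins that bind Wnt directly. Of 9 tested, 5 were lower in TC4-2A cells (FZD1, FZD3, FZD4, FZD6 and FZD8; 55.6%, beside 28.8% of all genes called, 14.6% lower), and in TL4-2A cells 2 were higher (FZD5 and FZD7) and 5 lower (FZD3, FZD4, FZD6, FZD8 and FZD9), 77.8% beside 44.3% of all genes. FZD8 had the highest mean per exon length in each line, with 8.80 CPM per kilobase in TC4-2A, 9.004 in TL4-2A and 10.6 in T-REx cells, but overlapped its next neighbour in that order in every line. The changes were small. FZD3 gave log2 fold changes of -0.22 in the TC4-2A line and -0.24 in the TL4-2A line, FZD4 -0.33 and -0.31, FZD6 -0.33 and -0.21, and FZD8 -0.27 and -0.23, with adjusted p between 1.15e-06 and 0.00057 (edgeR). None of these 4 passed the test between TC4-2A and TL4-2A cells.

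FZD1 was lower in TC4-2A cells, at 15.1 ± 0.685 CPM in TC4-2A, 18.9 ± 1.66 CPM in TL4-2A and 20.4 ± 1.89 CPM in T-REx cells. Its log2 fold change was -0.44 against T-REx cells (adjusted p = 1.3e-05, edgeR) and -0.33 against TL4-2A cells (adjusted p = 0.000688, edgeR), beside neighbour medians of 0.01 and -0.10. FZD5 and FZD7, both on chromosome 2, were higher in TL4-2A cells by 0.50 and 0.38 on the log2 scale (adjusted p = 1.92e-09 and 1.08e-07, edgeR). Their neighbours had medians of 0.48 and 0.38 there, with 15 and 11 of 20 higher and 0 lower. TC4-2A against TL4-2A cells gave -0.50 for FZD5 and -0.44 for FZD7 (adjusted p = 1.38e-09 and 3.62e-09, edgeR). FZD9 was lower in TL4-2A cells at -0.52 (adjusted p = 0.0223, edgeR), although its libraries overlapped with those of T-REx cells. The call was lost with DESeq2 (0.0566), without T-REx replicate 1 (0.0610) or 2 (0.191) and without TL4-2A replicate 3 (0.0979), with 0.00321 to 0.191 over 15 alternatives. FZD9 in TC4-2A against TL4-2A cells (0.53, adjusted p = 0.0267, edgeR) was lost with DESeq2 (0.0644), without TC4-2A replicate 1 (0.170) and without TL4-2A replicate 1 (0.0566) or 3 (0.116), with 0.00847 to 0.170 over 15 alternatives. FZD2 passed no test, and FZD10 had 1 count in the 9 libraries together.

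LRP6, the co-receptor that is phosphorylated when Wnt binds, moved in opposite directions in the engineered lines. It had 192 ± 4.84 CPM in TC4-2A, 272.5 ± 6.52 CPM in TL4-2A and 204 ± 2.22 CPM in T-REx cells (SD, n = 3). The rise in TL4-2A cells was 0.42 on the log2 scale (SE 0.03, adjusted p = 9.01e-15, edgeR), beside a median of 0.44 over its 20 neighbours on chromosome 12, of which 15 were higher and 1 lower. The decrease in TC4-2A cells was -0.08 (adjusted p = 0.0264, edgeR). It was lost with DESeq2 (adjusted p = 0.0551), with no expression filter (0.0660), without T-REx replicate 2 (0.0698) or 3 (0.109) and without TC4-2A replicate 1 (0.149), with 0.0256 to 0.149 over 15 alternatives. TC4-2A against TL4-2A cells gave -0.50 (SE 0.03, adjusted p = 6.23e-17, edgeR). LRP5, its homologue, was lower in TC4-2A cells (log2 change -0.15, adjusted p = 0.00888, edgeR) and did not pass between the lines.

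The alternative receptors ROR1, ROR2 and RYK passed no test against T-REx cells. ROR2 (log2 change -0.18, adjusted p = 0.00391, edgeR) and RYK (-0.15, adjusted p = 0.0105, edgeR) were lower in TC4-2A than in TL4-2A cells. The call for RYK was lost without TC4-2A replicate 3 (0.0538, with 0.00453 to 0.0538 over 15 alternatives).

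WLS, the carrier that brings lipid-bearing Wnt proteins to the cell surface, was lower in both lines, with 147 ± 2.61 CPM in TC4-2A, 159 ± 1.26 CPM in TL4-2A and 171 ± 2.48 CPM in T-REx cells. The log2 fold change was -0.22 in TC4-2A (adjusted p = 3.36e-07, edgeR), -0.11 in TL4-2A cells (adjusted p = 0.00397, edgeR) and -0.11 for TC4-2A against TL4-2A cells (adjusted p = 0.00367, edgeR). PORCN, which attaches the lipid, passed no test.

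LGR4 and LGR5 are receptors of R-spondins, secreted proteins that keep Frizzled receptors at the surface by holding back the ubiquitin ligases RNF43 and ZNRF3. LGR5 was lower in TC4-2A cells, with 60.8 ± 2.39 CPM in TC4-2A, 75.4 ± 0.203 CPM in TL4-2A and 78.5 ± 1.78 CPM in T-REx cells. Its log2 fold change was -0.37 (SE 0.04, adjusted p = 1.46e-08, edgeR) against T-REx and -0.31 (adjusted p = 3.83e-07, edgeR) against TL4-2A cells. LGR4 was lower in TC4-2A cells (log2 change -0.26, adjusted p = 6.08e-05, edgeR) and in TL4-2A cells (log2 change -0.14, adjusted p = 0.0203, edgeR), the call for TL4-2A cells being lost without T-REx replicate 3 (0.159) or TL4-2A replicate 2 (0.0846), with 0.0136 to 0.159 over 15 alternatives. ZNRF3 was higher in TL4-2A cells by 0.13 (adjusted p = 0.0239, edgeR) beside a neighbour median of 0.20. That call was lost with DESeq2 (0.0596), with no expression filter (0.0899) and without T-REx replicate 1 (0.0990) or TL4-2A replicate 1 (0.105), with 0.0172 to 0.105 over 15 alternatives, and TC4-2A against TL4-2A cells gave -0.09 (adjusted p = 0.171, edgeR). RNF43 passed no test.

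CTNNB1, which encodes β-catenin, had 256 ± 3.76 CPM in TC4-2A, 290 ± 9.13 CPM in TL4-2A and 278 ± 2.56 CPM in T-REx cells. It was lower in TC4-2A cells (log2 change -0.12, adjusted p = 0.00102, edgeR) and lower in TC4-2A than in TL4-2A cells (log2 change -0.18, adjusted p = 2.17e-06, edgeR). GSK3B, the kinase that marks β-catenin for destruction, was higher in TL4-2A cells by 0.10 (adjusted p = 0.0151, edgeR), a call lost with no expression filter (0.0664) and without T-REx replicate 1 (0.0635) or 2 (0.0648) or TL4-2A replicate 3 (0.0742), with 0.0105 to 0.0742 over 15 alternatives. TC4-2A against TL4-2A cells gave -0.14 (adjusted p = 0.00208, edgeR) for GSK3B. APC was lower in TL4-2A cells (log2 change -0.09, adjusted p = 0.0196, edgeR), lost with DESeq2 (0.0501) and without T-REx replicate 1 (0.0829) or 2 (0.0817) or TL4-2A replicate 2 (0.0898), with 0.0120 to 0.0898 over 15 alternatives, and TC4-2A against TL4-2A cells gave 0.02 (adjusted p = 0.608, edgeR). AXIN1 and AXIN2 passed no test.

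TCF7L2, the most abundant TCF factor per exon length in TL4-2A and T-REx cells, moved in opposite directions in the lines. It had 69.3, 70.2 and 65.6 CPM in TC4-2A libraries, 107.5, 103.6 and 109.4 CPM in TL4-2A libraries and 91.4, 90.6 and 89.9 CPM in T-REx libraries. The 3 lines did not overlap. The log2 fold change was -0.41 (SE 0.04, adjusted p = 3.44e-10, edgeR) in TC4-2A cells, 0.24 (SE 0.04, adjusted p = 7.05e-06, edgeR) in TL4-2A cells and -0.64 (SE 0.04, adjusted p = 1.02e-15, edgeR) for TC4-2A against TL4-2A cells. Its 20 neighbours on chromosome 10 had a median of -0.50 in TC4-2A cells, with 0 higher and 12 lower, and of -0.00 in TL4-2A cells, with 2 higher and 5 lower. TCF7L1 was higher in TL4-2A cells by 0.19 (adjusted p = 0.0336, edgeR), lost with DESeq2 (0.1000), with no expression filter (0.0788) and without T-REx replicate 1 (0.0734) or 3 (0.172) or TL4-2A replicate 1 (0.101) or 2 (0.104), with 0.0154 to 0.172 over 15 alternatives, and TC4-2A against TL4-2A cells gave -0.02 (adjusted p = 0.870, edgeR). LEF1 and TCF7 passed no test.

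Several members lay in stretches where neighbouring genes moved with them. Of the 18 members called in TC4-2A cells, 9 had the sign of their neighbours' median and 9 the opposite sign. Of the 25 called in TL4-2A cells, 17 had the same sign and 8 the opposite. The same share over all called genes was not computed, so these counts have no background to be read against. In TL4-2A cells WNT5B, FZD5, FZD7, LRP6 and ZNRF3 were within 0.15 of a neighbour median that was itself at least 0.15 from 0, and in TC4-2A cells TCF7L2 was. This distance was chosen after the values were seen. SFRP1, SFRP2 and WNT7B in TC4-2A cells and WNT7B and WNT9A in TL4-2A cells were lower beside neighbours whose median was above 0. The part of neighbouring genes in these differences was not tested.

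**Figure D5:**
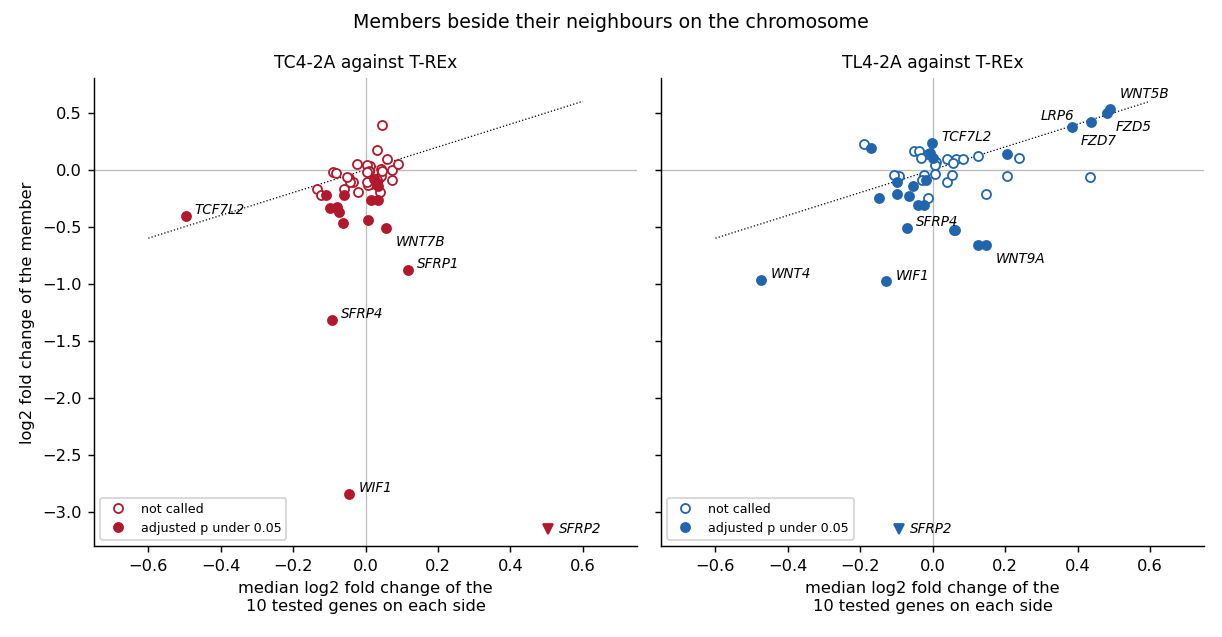
Log2 fold change of each tested member (vertical axis) against the median log2 fold change of the 10 tested genes on each side of it (horizontal axis), in TC4-2A (left) and TL4-2A cells (right). Filled points passed an adjusted p under 0.05, triangles mark SFRP2 beyond the axis, and the dotted line marks equal values. FZD5, FZD7, LRP6 and WNT5B lie near the line in TL4-2A cells, and SFRP1, SFRP2, SFRP4 and WIF1 lie far below it in TC4-2A cells.

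Feedback genes are switched on by β-catenin and TCF/LEF in many tissues, and AXIN2 is the one most often read for that purpose. Of 10 listed (AXIN2, SP5, NKD1, LGR5, RNF43, ZNRF3, NOTUM, DKK1, LEF1 and TCF7) 8 were tested. In TC4-2A cells 0 were higher and 1 (LGR5) was lower (12.5%, beside 28.8% of all genes), with a median of -0.01, and in TL4-2A cells 1 (ZNRF3) was higher and 0 lower (12.5%, beside 44.3%), with a median of 0.11. At an unadjusted p under 0.05 edgeR gave the same counts, and DESeq2 called LGR5 but not ZNRF3. AXIN2 had 12.8 ± 0.606 CPM in TC4-2A, 14.0 ± 0.216 CPM in TL4-2A and 12.9 ± 1.34 CPM in T-REx cells, with log2 fold changes of -0.01 (SE 0.08, adjusted p = 0.946, edgeR) in TC4-2A and 0.12 (SE 0.08, adjusted p = 0.266, edgeR) in TL4-2A cells. NKD1, which binds Dishevelled, was lower in TC4-2A than in TL4-2A cells (log2 change -0.18, adjusted p = 0.0143, edgeR), with overlapping libraries, and the call was lost with DESeq2 (0.0616) and without TC4-2A replicate 1 (0.146) or 3 (0.0635) or TL4-2A replicate 1 (0.0669) or 2 (0.0518), with 0.00135 to 0.146 over 15 alternatives. NKD2 passed no test. SP5, a transcription factor, had 13 counts in TC4-2A, 20 in TL4-2A and 14 in T-REx cells and was not tested.

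A list of 75 other pathway genes held 68 that were tested. In TC4-2A cells 11 were higher and 14 lower (36.8%, beside 28.8% of all genes; median 0.0001), and in TL4-2A cells 15 were higher and 25 lower (58.8%, beside 44.3%; median -0.04). The 11 higher in TC4-2A cells were 6 without TC4-2A replicate 2. The largest change was that of RSPO4, an R-spondin and thus an agonist, with 0.798, 0.806 and 0.590 CPM in TC4-2A libraries, 0.846, 0.961 and 1.03 CPM in TL4-2A libraries and 5.24, 6.15 and 5.21 CPM in T-REx libraries. Both lines lay below every T-REx library, with log2 changes of -2.90 (SE 0.20, adjusted p = 1.85e-14, edgeR) in TC4-2A and -2.54 (SE 0.20, adjusted p = 2.25e-13, edgeR) in TL4-2A cells. SFRP5, another secreted antagonist, had 4.04, 2.61 and 2.63 CPM in TC4-2A libraries, 1.39, 1.60 and 1.40 CPM in TL4-2A libraries and 4.34, 4.58 and 4.38 CPM in T-REx libraries. It was lower in TL4-2A cells (log2 change -1.59, adjusted p = 1.58e-08, edgeR) and in TC4-2A cells (log2 change -0.52, adjusted p = 0.0124, edgeR). The call in TC4-2A cells was lost with DESeq2 (0.0572) and without TC4-2A replicate 2 (0.0843) or 3 (0.0716), with 0.000571 to 0.0843 over 15 alternatives. SFRP1, SFRP4 and WIF1 were also lower in TC4-2A than in T-REx cells. TC4-2A against TL4-2A cells gave 1.07 for SFRP5 (adjusted p = 7.36e-05, edgeR), the direction opposite to that of SFRP1, SFRP4 and WIF1 there. CXXC4, which binds Dishevelled, was lower in both lines, with 5.92 ± 0.612 CPM in TC4-2A, 2.90 ± 0.475 CPM in TL4-2A and 7.57 ± 0.0995 CPM in T-REx cells. The log2 change was -1.39 in TL4-2A (adjusted p = 1.74e-10, edgeR) and -0.36 in TC4-2A cells (adjusted p = 0.0189, edgeR). The call in TC4-2A cells was lost with DESeq2 (0.0754) and without T-REx replicate 2 (0.0582) or TC4-2A replicate 2 (0.111). Over 15 alternatives its adjusted p ran between 0.0109 and 0.111. TC4-2A against TL4-2A cells gave 1.03 for CXXC4 (adjusted p = 3.27e-07, edgeR). DKK2 was higher in TC4-2A than in TL4-2A cells, with 1.75 ± 0.340 CPM in TC4-2A and 0.643 ± 0.181 CPM in TL4-2A cells (log2 change 1.45, adjusted p = 9.24e-05, edgeR). It was lower in TL4-2A than in T-REx cells (log2 change -0.91, adjusted p = 0.0155, edgeR). That call was lost without TL4-2A replicate 1 (0.0613) or 2 (0.0742), with 0.0106 to 0.0742 over 14 alternatives.

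A list of 30 genes known as Wnt targets in some tissue held 21 that were tested, of which TC4-2A cells had 2 higher and 9 lower (52.4%, beside 28.8% of all genes; median -0.16), and TL4-2A cells 1 higher and 14 lower (71.4%, beside 44.3%; median -0.28). TC4-2A against TL4-2A cells had 10 higher and 3 lower (61.9%, beside 35.4%), the 3 lower being 1 with DESeq2, with no expression filter, without TC4-2A replicate 3 and without TL4-2A replicate 3. The 2 higher in TC4-2A cells were 1 with at least 10 counts in every library and in the fit of the 2 lines alone. The 1 higher in TL4-2A cells was lost in those fits and without T-REx replicate 2 or TL4-2A replicate 1. Over the 21 genes, log2 changes ran from -1.36 to 2.34 in TC4-2A cells and from -1.19 to 1.80 in TL4-2A cells. No gene called higher against T-REx cells met the rule for naming, 2-fold and 1 CPM, so the genes named against T-REx cells are all lower. CD44, a receptor for hyaluronan, was lower in TC4-2A cells, at 13.6, 13.0 and 13.1 CPM in TC4-2A libraries, 35.8, 33.6 and 38.2 CPM in TL4-2A libraries and 33.8, 34.7 and 33.4 CPM in T-REx libraries. The log2 fold change was -1.36 (adjusted p = 1.99e-20, edgeR) against T-REx and -1.43 (adjusted p = 3.12e-21, edgeR) against TL4-2A cells. ID2, an inhibitor of helix-loop-helix factors, was lower in TL4-2A cells (log2 change -1.08, adjusted p = 5.69e-14, edgeR), with 12.4 ± 2.30 CPM in TL4-2A and 26.4 ± 1.12 CPM in T-REx cells, beside a neighbour median of -0.57. For ID2, TC4-2A against TL4-2A cells gave 1.11 (adjusted p = 2.28e-14, edgeR), beside a neighbour median of 0.58. APCDD1, a membrane protein that binds Wnt and LRP5 and holds the signal back, was lower in both lines. The log2 change was -1.19 in TL4-2A (adjusted p = 2.30e-08, edgeR) and -0.62 in TC4-2A cells (adjusted p = 0.000361, edgeR). It had 4.74, 4.22 and 4.72 CPM in TC4-2A libraries, 3.08 ± 0.805 CPM in TL4-2A and 6.98 ± 0.547 CPM in T-REx cells. TC4-2A against TL4-2A cells gave 0.57 (adjusted p = 0.00457, edgeR). That call was lost without TL4-2A replicate 2 (0.0608), with 0.000393 to 0.0608 over 15 alternatives.

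Exons of 18 members overlap a gene on the other strand in Gencode v44, and for 4 of them (DKK3, FZD4, TCF7 and WNT2B) that gene had more counts than the member. The strand setting of the counting is not given in the sources used here, so the values of these members are uncertain. Exons of 4 members (APC, AXIN2, FZD8 and RNF43) overlap a gene on the same strand. That gene had 4, 12, 0 and 65 counts over all libraries, in that order. How reads in both genes were counted is not given either.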

How the data were processed

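The 9 RNA-Seq libraries (3 per line) were prepared with a directional kit after depletion of ribosomal RNA. The authors deposited raw counts per gene, made by HISAT2 alignment to GRCh38 and featureCounts (Subread) against Gencode v33. For tool versions, the strand setting and the handling of reads with several matches, nothing is stated in the sources used here. The deposited DESeq2 results of the authors for both lines against T-REx cells (mean normalized counts, log2 fold changes with standard errors, statistics, p-values) were not used.

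The counts entered as deposited, for 60648 genes. Left out were 3 damaged lines, and 44 pseudoautosomal copies on the Y chromosome were kept apart. Gencode v44 gave positions and exon lengths and matched 60462 gene IDs, and RefSeq (GRCh38.p14) gave promoter sequences. In edgeR 4.0.16 (R 4.3.3), filterByExpr was run over the lines, TMM factors ran from 0.991 to 1.01, and the quasi-likelihood model, with 1 term for each line and all 9 libraries in it, was tested 2-sided. Standard errors were derived from the test statistic. CPM use the TMM library sizes, and levels per kilobase divide them by exon length. The 10 tested genes on each side of a member served as its neighbours. Precision depends on depth, 16561680 to 21491977 counts a library, and on the spread between the 3 libraries of each line. The test was checked on simulated data, in which far fewer genes changed than were called here. Python 3.11.15 with pandas 2.3.3, scipy 1.17.1 and matplotlib 3.10.9 wrote the tables and plots.

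The members and lists were chosen with earlier results of these data known. Values in every library are given for members called with at least 1.5-fold change in any comparison and at least 1 CPM in 1 line, and genes of the other lists are named from 2-fold and 1 CPM. Members named with means or fold changes outside this rule were picked once their values had been seen. The alternatives were DESeq2 1.42.0 as the test, scaling by RLE, a fit without the expression filter, a minimum of 10 counts in each library, a model of the 2 lines alone, a block for the replicate number, and every library omitted in turn.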

Additional observations from a re-analysis of the deposited data

Results flagged for a closer look

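LRP6 and TCF7L2 were called lower for TC4-2A and higher for TL4-2A cells when each was set against T-REx cells, and the direct comparison of TC4-2A with TL4-2A cells passed for both, with log2 fold changes of -0.50 for LRP6 (adjusted p = 6.23e-17, edgeR) and -0.64 for TCF7L2 (adjusted p = 1.02e-15, edgeR). The neighbours of LRP6 on chromosome 12 had a median of -0.40 in this comparison, with 1 higher and 13 lower of 20, and those of TCF7L2 on chromosome 10 a median of -0.51, with 0 higher and 12 lower. The decrease of LRP6 in TC4-2A cells against T-REx cells was small (-0.08), and without TC4-2A replicate 1 it was -0.06 (adjusted p = 0.149, edgeR, the highest of 15 alternatives, the lowest being 0.0256).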

How the results depend on the processing

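Counts of members called moved with the test and the libraries used, as did those over all genes. With 18 called in TC4-2A cells, DESeq2 called 17 and leaving out a library 17 to 20. Over all genes, 5607 of 19473 were called there, 4274 with DESeq2 and 4686 to 5674 with a library left out. With 25 called in TL4-2A cells, DESeq2 called 18 and leaving out a library 19 to 26. Over all genes, 8633 of 19473 were called there, 7044 with DESeq2 and 7497 to 8816 with a library left out. With 21 called between TC4-2A and TL4-2A cells, DESeq2 called 18 and leaving out a library 20 to 22. Over all genes, 6884 of 19473 were called there, 5488 with DESeq2 and 5979 to 6953 with a library left out. Taken over both directions, these counts and those of the other lists stayed within 1.5 times under every alternative run. Counts in 1 direction moved further in 6 cases, each given with its list above. Of 64 calls of single members, 17 were lost under at least 1 alternative and 0 changed direction, each of the 17 being given with its gene. DESeq2 lost 11 of the 64, and RLE scaling 0. The filter of 10 counts in every library removed SFRP2, WNT4 and WIF1 among the called members. Of the genes from the other lists, RSPO4, CD44 and ID2 kept the calls given above in all alternatives that tested them. Calls of SFRP5 and CXXC4 in TC4-2A cells, DKK2 in TL4-2A cells and APCDD1 between TC4-2A and TL4-2A cells were lost under some alternatives. The other calls given for SFRP5, CXXC4, DKK2 and APCDD1 were kept. Replicate numbers did not pair the libraries (correlations of same-numbered deviations from -0.029 to 0.030, best with its own number in 2 of 9 cases), and with the replicate number as a block 18, 26 and 22 members were called, in the order above. Depth limited SFRP2, WNT6, WNT10A, FZD10, NOTUM and SP5, which had few counts in some or all lines.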
